A study of Homo sapiens with 12 samples.

Results

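Circular RNAs (circRNAs) are closed loops made when the end of a downstream exon is spliced back to the start of an upstream one, and sequencing detects them by reads that cross this back-splice junction. The members described here are exonic circRNAs that the authors' table assigns to transcripts taken here as non-coding. They have the class exonic and a best-matching transcript whose accession begins with NR_ (a RefSeq non-coding transcript) or with T and a number (an identifier from a catalogue that the sources used here do not name). That the T-numbered transcripts are non-coding is an assumption, since the labels do not say so. Members were chosen by these 2 table columns and not by their reads. They numbered 369 on 229 host genes, among 14140 exonic circRNAs and 17938 circRNAs in all. Of the 369, 270 lay on an NR_ transcript and 99 on a T-numbered one.

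A transcript can be non-coding for different reasons. A long non-coding RNA (lncRNA) gene makes RNA that does not encode a protein. A pseudogene is a disabled copy of a gene that can still be transcribed. Many protein-coding genes also make splice forms that carry an NR_ accession because their reading frame is broken. Circularization joins exons irrespective of the reading frame, so each kind of host can give circRNAs, which lack free ends and so resist exonucleases.

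The study sequenced rRNA-depleted total RNA of HCT116 and Lovo, which are established lines of human colorectal cancer and are spelled here as in the labels, in 12 libraries that make 4 groups of 3. Resistant HCT116 and resistant Lovo cells had been grown in stepwise increasing 5-fluorouracil (5-Fu, a pyrimidine analogue used against colorectal cancer), starting at 0.1 and ending at 2 μg/ml, a dose they withstood for 3 days or more. Sensitive HCT116 and sensitive Lovo cells were the parental lines. Whether the 3 libraries of a group are separate cultures, and whether a line was selected more than once, is not in the labels. Each p-value therefore reflects the spread among these libraries only, which can be technical, and other differences between a derivative and its parent cannot be told apart from resistance.

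The libraries held 5654 to 10535 junction reads each and 92237 together. This depth was low for single circRNAs, and the HCT116 libraries were deeper on the whole than the Lovo libraries. Of 12 epithelial marker genes, 6 had circRNA reads, and none of 8 fibroblast, 8 immune and 6 endothelial markers had any. Such reads are an imperfect check, because a gene can be active without giving a circRNA.

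The label non-coding describes the transcripts, for the T-numbered ones as an assumption, and many of the genes behind the NR_ ones are protein-coding. In a RefSeq gene table (GRCh38.p14), 161 of the 369 lay on 79 genes typed as protein-coding, 64 on 39 pseudogenes and 45 on 27 lncRNA genes. The table held none of the 84 hosts of the 99 T-numbered circRNAs. By reads the order was similar, with 1004 of 2455 member reads on coding genes, 834 on T-numbered hosts, 398 on pseudogenes and 219 on lncRNA genes. Genes typed as lncRNA thus gave the fewest members and the fewest reads.

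**Figure D1:**
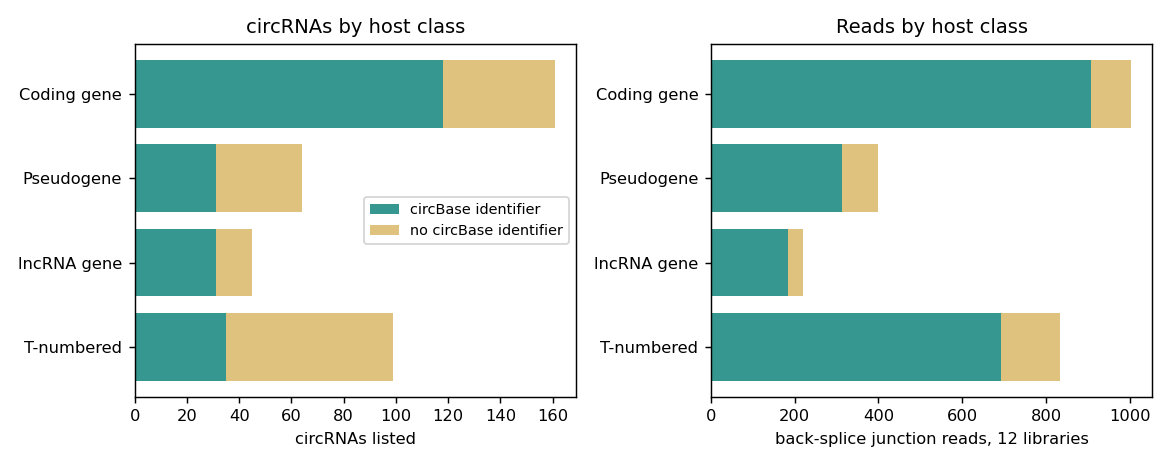
Bars give the number of circRNAs (left) and their back-splice junction reads summed over 12 libraries (right) by class of the host gene, split by whether the table gives a circBase identifier. Coding genes hold 161 of 369 circRNAs and 1004 of 2455 reads, and T-numbered hosts have the lowest share of circRNAs with an identifier.

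Fewer of the members were listed in circBase, a public collection of circRNAs, than of the other exonic circRNAs: 215 of 369 (58.3%) among members against 73.2% of 13771 others. The share was 73.3% on coding genes, 68.9% on lncRNA genes, 48.4% on pseudogenes and 35.4% on T-numbered transcripts. Coding hosts were thus level with the other exonic circRNAs, and the lower overall share came with pseudogenes and T-numbered hosts. The share also moved with reads: all 37 members with 10 or more reads had an identifier, as did 97.9% of other exonic circRNAs at that level, whereas 53.6% of the members and 70.0% of the others below that level had one. Weighted by reads, 85.4% of member reads and 89.8% of other exonic reads fell on circRNAs in circBase. These shares are descriptions of the table, since circRNAs of 1 host are not independent.

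In size and abundance the members were much like other exonic circRNAs. Their predicted spliced length had a median of 519 bases, against 572 bases for the others, and their genomic span a median of 9637 against 10174 bases. T-numbered circRNAs were longer, with a median of 677 bases and an upper quartile of 2221 bases. Over all 12 libraries, 54 members (14.6%) had no read and 158 (42.8%) were seen in a single library, against 15.2% and 40.2% of the others. The median was 3 reads in both sets. Reads of the members were concentrated: the top 3 held 25.9% of them, against 2.05% for the top 3 of the far larger set of other exonic circRNAs.

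The members' share of all junction reads was 2.89 ± 0.363% in resistant HCT116 and 3.04 ± 0.0805% in sensitive HCT116 libraries, and 2.42 ± 0.0811% in resistant Lovo and 2.12 ± 0.375% in sensitive Lovo libraries (SD, n = 3 each). Within each line the resistant and sensitive libraries overlapped. Between lines they did not, with HCT116 above Lovo by 0.469 percentage points in resistant and by 0.922 in sensitive cells. Much of the gap in resistant cells, and part of it in sensitive cells, lay in 2 circRNAs, hsa_circ_0001944 of FIRRE and hsa_circ_0131202 of G073721. They held 46 and 123 of 755 member reads in resistant HCT116, against 0 and 50 of 532 in resistant Lovo. In sensitive cells they held 36 and 123 of 778 in HCT116, against 0 and 32 of 390 in Lovo. A gap among the remaining members was not tested. These shares are sums over chosen members and are given as a description, with no test. In resistant cells coding hosts were not higher in HCT116, while the means of the other host classes were. Coding hosts took 1.01 ± 0.142% in resistant HCT116 against 1.10 ± 0.0179% in resistant Lovo libraries. In sensitive cells they took 1.28 ± 0.171% in HCT116 against 0.935 ± 0.322% in Lovo libraries (SD, n = 3 each). The resistant lines overlapped for NR_ members alone and for T-numbered members alone. The lncRNA hosts took 0.340 ± 0.0547% in resistant HCT116 against 0.118 ± 0.0106% in resistant Lovo libraries, and 0.295 ± 0.0493% in sensitive HCT116 against 0.147 ± 0.0842% in sensitive Lovo libraries (SD, n = 3 each). Of these lncRNA host reads FIRRE supplied 49 of 89 in resistant HCT116 and 36 of 77 in sensitive HCT116, and none of the 26 in resistant or the 27 in sensitive Lovo.

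**Figure D2:**
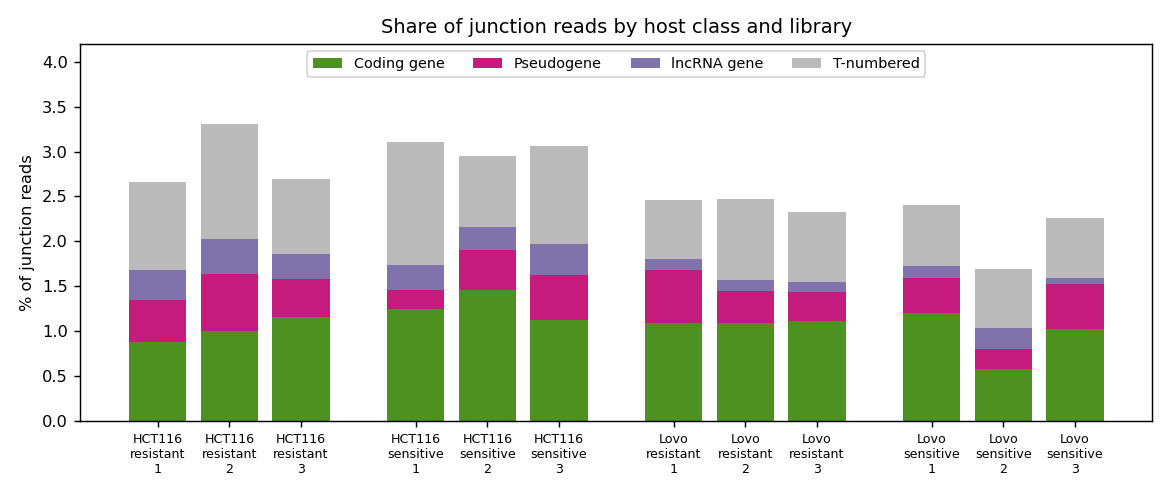
Stacked bars give, for each of 12 libraries, the percentage of all back-splice junction reads that fell on the circRNAs described, by class of host gene. The HCT116 libraries lie between 2.66 and 3.31% and the Lovo libraries between 1.70 and 2.47%.

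Only 9 of the 369 circRNAs had enough reads to be tested, among 300 in the whole table. A circRNA counted as called when edgeR's quasi-likelihood test gave a Benjamini-Hochberg adjusted p under 0.05 over those 300. A junction is a single site, so its reads were not divided by length, and levels are given as counts per 1000000 junction reads (CPM), scaled between libraries by edgeR's trimmed mean of M-values.

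Between the lines, 3 of the 9 were called in the resistant and 3 in the sensitive comparison, where 16.7% and 14.3% of all tested circRNAs were called. In resistant cells 2 were higher and 1 lower in HCT116, beside 8.33% of all called higher and 8.33% lower, and in sensitive cells all 3 were higher, beside 8.67% called higher and 5.67% lower. FIRRE and one circRNA of host G073721 were called in both, with more reads in HCT116. The libraries did not overlap for 5 of the 9 in resistant cells and 3 of the 9 in sensitive cells, beside 28.3% and 34.3% of all tested circRNAs.

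FIRRE is an X-linked lncRNA gene whose transcript stays in the nucleus and is known for a role in the folding and placement of chromosomes there. Its main circRNA, hsa_circ_0001944 (hg19 chrX:130883334-130928494, minus strand), had 13, 19 and 14 reads in resistant HCT116 libraries and 3, 17 and 16 in sensitive HCT116 libraries. All 6 Lovo libraries had 0. The level averaged 1818 ± 470 CPM in resistant and 1461 ± 848 CPM in sensitive HCT116 libraries (SD, n = 3 each). The folds here set 3 reads as the limit that a count of 0 over a group allows and take the HCT116 level as observed. On that basis hsa_circ_0001944 was 13.8-fold higher in resistant HCT116 than in resistant Lovo (edgeR adjusted p = 1.10e-06). In sensitive HCT116 it was 10.3-fold higher than in sensitive Lovo (edgeR adjusted p = 1.81e-05). Counting error in the HCT116 reads is left out, so lower folds are possible. The call held under all 14 alternatives in the resistant comparison and under the 13 in which it was tested in the sensitive one. With the 2 sensitive groups alone it fell below the filter and was not tested. A second FIRRE member added 3 reads, and 3 FIRRE circRNAs outside the set had 15 reads, of which resistant HCT116 held 9, sensitive HCT116 held 6 and Lovo 0. Within HCT116, the resistant and sensitive libraries overlapped, and the log2 difference of 0.27 ± 0.60 (SE) was not called.

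The promoter of FIRRE is shown because its circRNAs were the most one-sided between the lines, and that of MAP3K4, a coding host described further on, beside it. Each is 250 bases before to 50 bases after the gene's start in RefSeq on GRCh38.p14, with CpG dinucleotides in capitals. The FIRRE window is chrX:131830594-131830893 on the minus strand and the MAP3K4 window chr6:160991519-160991818 on the plus strand.
FIRRE: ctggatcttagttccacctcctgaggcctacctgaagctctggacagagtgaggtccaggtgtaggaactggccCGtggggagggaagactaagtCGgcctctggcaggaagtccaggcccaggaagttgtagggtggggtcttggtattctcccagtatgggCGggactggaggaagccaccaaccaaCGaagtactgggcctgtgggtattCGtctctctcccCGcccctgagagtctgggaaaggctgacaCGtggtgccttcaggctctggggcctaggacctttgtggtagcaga
MAP3K4: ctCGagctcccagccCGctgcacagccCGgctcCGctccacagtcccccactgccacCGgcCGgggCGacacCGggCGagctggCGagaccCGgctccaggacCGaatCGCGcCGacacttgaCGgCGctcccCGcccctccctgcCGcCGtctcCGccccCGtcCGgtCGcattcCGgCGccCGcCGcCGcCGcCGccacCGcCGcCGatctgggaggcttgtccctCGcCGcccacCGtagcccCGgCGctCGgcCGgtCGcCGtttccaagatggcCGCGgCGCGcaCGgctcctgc
The motif counted was CG, which reads the same on both strands. The FIRRE window holds 7, and 63.2% of 35116 promoter windows hold at least as many, while the MAP3K4 window holds 48, as many or more than which are found in 1.98% of windows. The median window holds 14. No readout of these libraries bears on methylation or on the start of transcription at either window.

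The most abundant member belonged to G073721, a host on a T-numbered transcript, and so did another of the 3 members with most reads. The circRNA hsa_circ_0131202 (hg19 chr6:158733083-158735300, plus strand) had 42, 51 and 30 reads in resistant HCT116 libraries, against 20, 21 and 9 in resistant Lovo libraries. It had 50, 33 and 40 reads in sensitive HCT116 libraries, against 15, 7 and 10 in sensitive Lovo libraries. No HCT116 library was as low as any Lovo library. The log2 difference was 1.16 ± 0.33 in resistant cells (SE, edgeR adjusted p = 0.00504) and 1.76 ± 0.35 in sensitive cells (SE, edgeR adjusted p = 1.92e-05), both with HCT116 higher. Of 14 alternatives each, 3 ended the resistant call and 1 the sensitive call. With no filter on low counts the adjusted p was 0.678 in resistant and 0.100 in sensitive cells, and the resistant adjusted p was 0.104 without HCT116 resistant replicate 2 and 0.0908 without Lovo resistant replicate 3.

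The other G073721 circRNA, hsa_circ_0131196 (hg19 chr6:158703295-158735300), ends at the same base but begins upstream. It had 7, 10 and 8 reads in resistant HCT116, against 7, 10 and 19 in resistant Lovo libraries, and 2, 10 and 15 in sensitive HCT116, against 8, 12 and 14 in sensitive Lovo libraries. These overlapped, and its log2 differences of -0.68 ± 0.52 and -0.60 ± 0.52 (SE) were not called. The predicted sequence of hsa_circ_0131202 is 2218 bases, the same as its genomic span, so no intron was taken out, and that of hsa_circ_0131196 is 2334 bases over a span of 32006.

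G073721 overlaps a coding gene. Other circRNAs that end at the same base on the same strand are listed under TULP4, a tubby-like protein gene, as sense overlapping and not as exonic. Those TULP4 circRNAs had few reads: hsa_circ_0131194 had 13, all in Lovo, with 3 in resistant and 10 in sensitive libraries, and hsa_circ_0131201 had 7, all in HCT116, with 1 in resistant and 6 in sensitive libraries. Of the 99 T-numbered circRNAs, 34 overlapped and 28 shared an end with a circRNA listed under another host on the same strand, and those 28 held 633 of the 834 T-numbered reads (75.9%). G053490 shared ends with CPSF1P1, a pseudogene, G028499 with MESDC2, a chaperone of LDL-receptor family proteins, and G081611 with MRPS28, a protein of the mitochondrial ribosome. Which of the overlapping transcripts gave such reads cannot be told from the junction alone.

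DNA2, a helicase and nuclease that works in DNA replication and the resection of broken ends, had the most members of any host, with 13 circRNAs, 10 of them with reads. Its most abundant circRNA, hsa_circ_0006151 (hg19 chr10:70227880-70229920, minus strand), had 7, 13 and 10 reads in resistant HCT116, against 4, 4 and 3 in resistant Lovo libraries. It had 4, 10 and 22 reads in sensitive HCT116, against 5, 1 and 1 in sensitive Lovo libraries. The sensitive difference was called, at log2 2.04 ± 0.74 (SE, edgeR adjusted p = 0.0417), although the libraries overlapped, and 2 of 12 alternatives kept it, the adjusted p running between 0.0169 and 0.691. It was lost without HCT116 sensitive replicate 2 or 3 and without Lovo sensitive replicate 2 or 3, where the adjusted p was 0.0784, 0.344, 0.157 and 0.181. The resistant difference of 1.28 ± 0.69 (SE) was not called (edgeR adjusted p = 0.232).

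Reads summed over all DNA2 members gave 14, 13 and 16 in resistant HCT116 and 15, 11 and 26 in sensitive HCT116 libraries, and 15, 10 and 10 in resistant Lovo and 7, 3 and 2 in sensitive Lovo libraries. The sum was higher in sensitive HCT116 than in sensitive Lovo, at log2 1.78 ± 0.56 (SE, edgeR adjusted p = 0.0209 over 579 host sums), a call kept in 5 of 11 alternatives. It was lost with no filter, with limma-voom, and without HCT116 sensitive replicate 1 or 3 or Lovo sensitive replicate 2 or 3, with adjusted p up to 0.204. In Lovo the resistant libraries were all above the sensitive ones, at log2 1.30 ± 0.58 (SE), but this was not called (edgeR adjusted p = 0.841). Another DNA2 circRNA, hsa_circ_0009172, had 8, 4 and 7 reads in resistant Lovo and 0, 2 and 1 in sensitive Lovo libraries, and fell below the filter for testing.

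Of the 9 member host sums tested, 1 was called in the resistant comparison of the lines and 3 in the sensitive one, beside 11.9% and 9.84% of all 579 host sums. FIRRE was called in both. The sum of G073721 was called in sensitive cells, at log2 0.89 ± 0.28 (SE, edgeR adjusted p = 0.0225, kept in 4 of 11 alternatives, its adjusted p reaching 0.259 without HCT116 sensitive replicate 1), with 52, 43 and 55 reads in the HCT116 libraries, against 23, 19 and 24 in those of Lovo. In resistant cells it counted 49, 61 and 38 in HCT116, against 27, 31 and 28 in Lovo libraries, which did not overlap but were not called (edgeR adjusted p = 0.109).

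COA1, an assembly factor of mitochondrial respiratory complexes, had 59 reads on hsa_circ_0001700 (hg19 chr7:43679048-43680248, minus strand). They were 6, 7 and 9 in resistant HCT116, against 4, 5 and 3 in resistant Lovo, and 3, 9 and 10 in sensitive HCT116, against 1, 0 and 2 in sensitive Lovo libraries. The groups did not overlap in either state, but neither difference was called. The sensitive one was log2 2.49 ± 0.97 (SE, edgeR adjusted p = 0.0661).

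Between resistant and sensitive cells, no member was called in either line. In HCT116 edgeR called 0 of the 9 members, beside 1% of all tested circRNAs. An unadjusted p under 0.05 was found for 3 members, beside 30 of all 300, and limma-voom called 1 member, beside 6 of all 300. In Lovo edgeR called 0 of the 9, beside 0% of all, with 0 at an unadjusted p under 0.05, beside 17 of all 300. The difference of the resistance effects between the lines was called for 0 of the 9, beside 0.333% of all. At an unadjusted p under 0.05 it had 1 member, beside 29 of all 300. None of the 9 member host sums was called in HCT116 (background 0.518%), in Lovo (background 0%) or for the difference (background 0%) by edgeR. Under an unadjusted p of 0.05 were 1, 1 and 2 of them, beside 38, 31 and 40 of all 579 host sums. The libraries did not overlap for 1 of the 9 circRNAs in HCT116 and 1 in Lovo, beside 12.7% and 12.3% of all tested circRNAs.

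**Figure D3:**
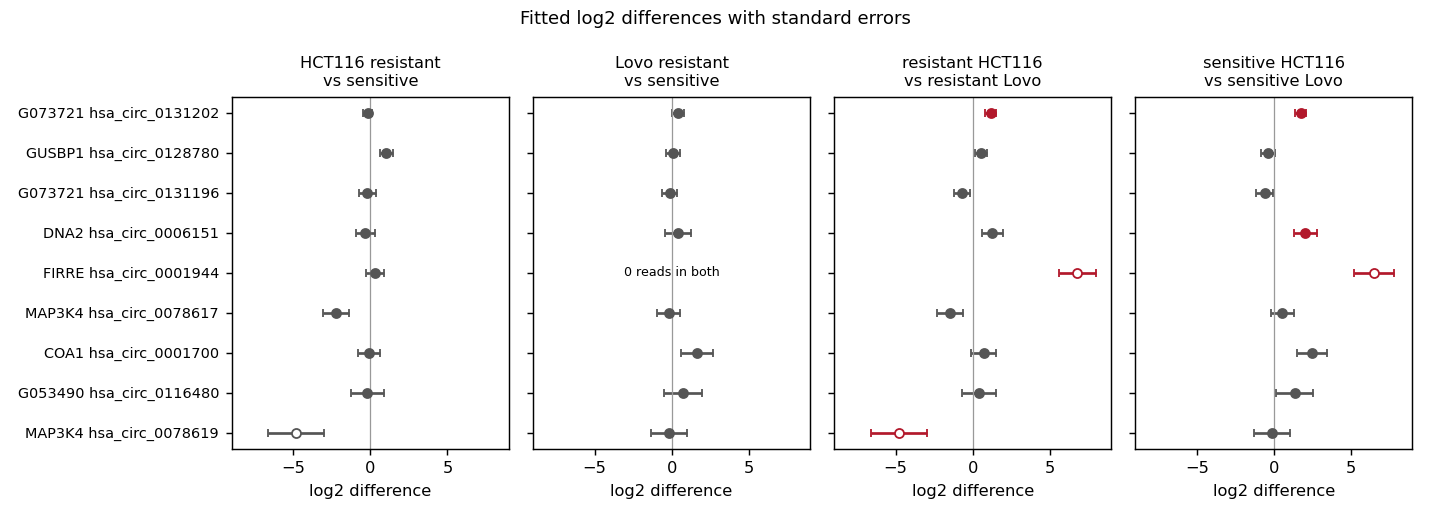
Points give edgeR's fitted log2 difference, first-named group minus second, with its standard error for the 9 tested circRNAs in 4 comparisons; red marks an adjusted p under 0.05 and an open point a group with 0 reads, whose fitted value is not a bound. FIRRE and hsa_circ_0131202 are red in both comparisons of the lines, and no point is red between resistant and sensitive cells.

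The smallest p-values in HCT116 belonged to MAP3K4, a kinase that acts upstream of JNK and p38. Its circRNA hsa_circ_0078617 (hg19 chr6:161455291-161471011, plus strand) had 0, 6 and 0 reads in resistant HCT116, against 9, 8 and 10 in sensitive HCT116 libraries. A shorter circRNA with the same end, hsa_circ_0078619, had 0, 0 and 0 reads in resistant HCT116, against 0, 8 and 3 in sensitive HCT116 libraries. The first did not overlap between groups and the second did, through the sensitive library with 0. The log2 difference of hsa_circ_0078617 was -2.23 ± 0.82 (SE, edgeR adjusted p = 0.196), and it was called with limma-voom and without resistant replicate 2, the one resistant library with reads, where the adjusted p was 0.0300 and 0.00555. The other was not called either (edgeR adjusted p = 0.196), and 8 of its 11 sensitive reads came from 1 library, without which the adjusted p was 0.673.

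In Lovo, hsa_circ_0078617 had 7, 5 and 4 reads in resistant and 11, 2 and 3 in sensitive libraries, and hsa_circ_0078619 had 4, 1 and 5 in resistant and 6, 1 and 3 in sensitive libraries. Both overlapped. The HCT116 effect minus the Lovo effect was -2.04 ± 1.12 for the first (SE, edgeR adjusted p = 0.520), so a difference between the lines in the response was not shown. Between resistant lines, hsa_circ_0078619 was called, with 0 reads in HCT116 against 10 in Lovo (edgeR adjusted p = 0.0493). With 3 reads allowed in HCT116 and the Lovo level taken as observed, it was 3.70-fold lower. Counting error in the 10 Lovo reads is left out, so a smaller fold is possible. The call was kept in 3 of 12 alternatives and lost, among others, on leaving out any resistant library but Lovo replicate 2 (adjusted p 0.103 to 0.151). The MAP3K4 sum over 3 members was 3, 6 and 0 reads in resistant HCT116, against 9, 16 and 13 in sensitive HCT116 libraries, and its log2 difference of -2.06 ± 0.67 was not called (SE, edgeR adjusted p = 0.185).

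GUSBP1, a pseudogene of the lysosomal enzyme β-glucuronidase, held the member second in reads. The circRNA hsa_circ_0128780 (hg19 chr5:21491430-21497305, plus strand) had 27, 28 and 17 reads in resistant HCT116, against 4, 10 and 19 in sensitive HCT116 libraries. It had 27, 9 and 9 in resistant Lovo, against 13, 8 and 15 in sensitive Lovo libraries. The lowest resistant HCT116 level, 1940 CPM, lay below the highest sensitive one, 2148 CPM, and the log2 difference of 1.02 ± 0.42 was not called (SE, edgeR adjusted p = 0.259). Near-identical copies of this gene exist, so its reads are uncertain to a degree that depends on how the authors treated reads with several matches, which was not tested. The same holds for the other pseudogene hosts and for GPR89A and TIMM23B.

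**Figure D4:**
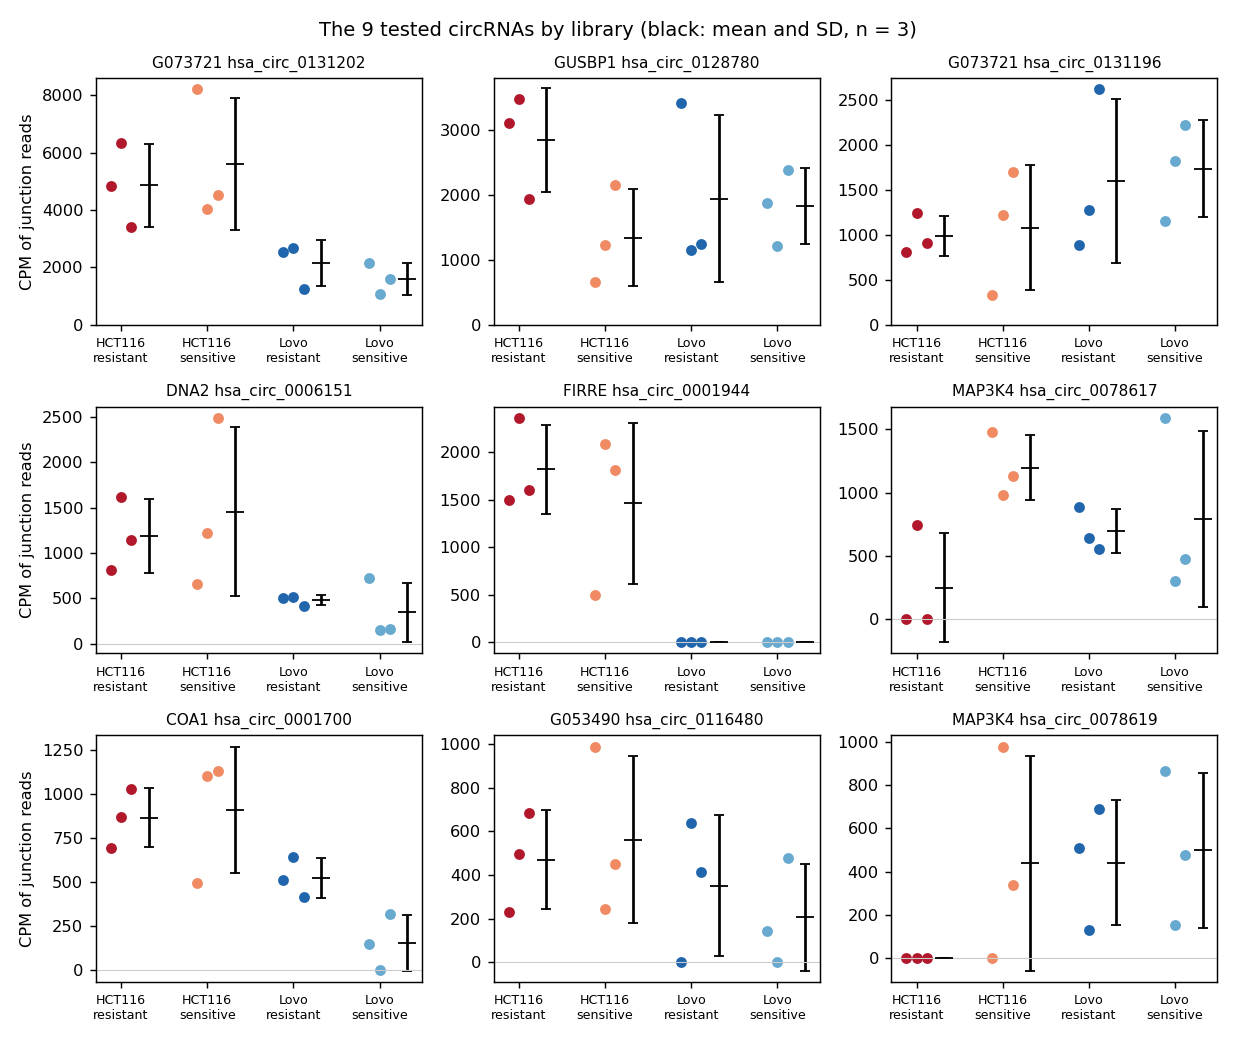
Points give the level of each of the 9 tested circRNAs in counts per 1000000 junction reads (CPM) for each library, with the mean and SD of each group of 3 in black. FIRRE is at 0 in all 6 Lovo libraries, and hsa_circ_0131202 is higher in every HCT116 library than in any Lovo library.

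Several hosts give circRNAs that share one end, so their reads can be set against each other within a library, free of library size. Among all circRNAs listed, 131 such pairs had 50 or more reads, at least 10 on each circRNA and a read in every library. Among members there were 3, on G073721, GUSBP1 and DNA2. These pairs were picked out after their values had been seen, and the test was run over all 131.

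For G073721, the shorter hsa_circ_0131202 took 82.8 ± 3.46% of the pair's reads in resistant HCT116 against 58.0 ± 22.6% in resistant Lovo libraries, and 81.9 ± 12.5% in sensitive HCT116 against 47.9 ± 15.2% in sensitive Lovo libraries (SD, n = 3 each). HCT116 libraries lay between 72.7 and 96.2% and Lovo libraries between 32.1 and 74.1%, so they overlapped slightly. The mean difference of 29.4 points had p = 0.005 in a two-sided exact permutation test within state, the smallest it can give, and an adjusted p of 0.328 over the 131 pairs. For DNA2, hsa_circ_0006151 took 75.0 ± 22.0% in resistant HCT116 against 37.8 ± 10.7% in resistant Lovo, and 87.5 ± 6.53% in sensitive HCT116 against 61.1 ± 34.7% in sensitive Lovo libraries, from as few as 2 reads in a library (exact permutation p = 0.04, adjusted 0.437, and p of 0.05 or more with any of 8 libraries left out). None of the 131 pairs passed after adjustment, but the design made that nearly certain: 14 pairs at the smallest p would have been needed for an adjusted p under 0.05, and 2 were there. In 0% of the pairs were the shares of the lines free of overlap.

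For GUSBP1, the shorter hsa_circ_0072023 had 0, 2 and 2 reads in resistant HCT116 and 0, 7 and 11 in sensitive HCT116 libraries. Its share of the pair was 5.73 ± 5.33% in resistant and 25.9 ± 22.6% in sensitive HCT116 libraries (SD, n = 3 each), which overlapped through 1 sensitive library at 0% (exact permutation p = 0.4). Between resistant and sensitive libraries, 9.16% of the 131 pairs in HCT116 and 7.63% in Lovo did not overlap, none of the 3 among them. In Lovo it was 2.30 ± 3.98% in resistant and 2.38 ± 4.12% in sensitive libraries.

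**Figure D5:**
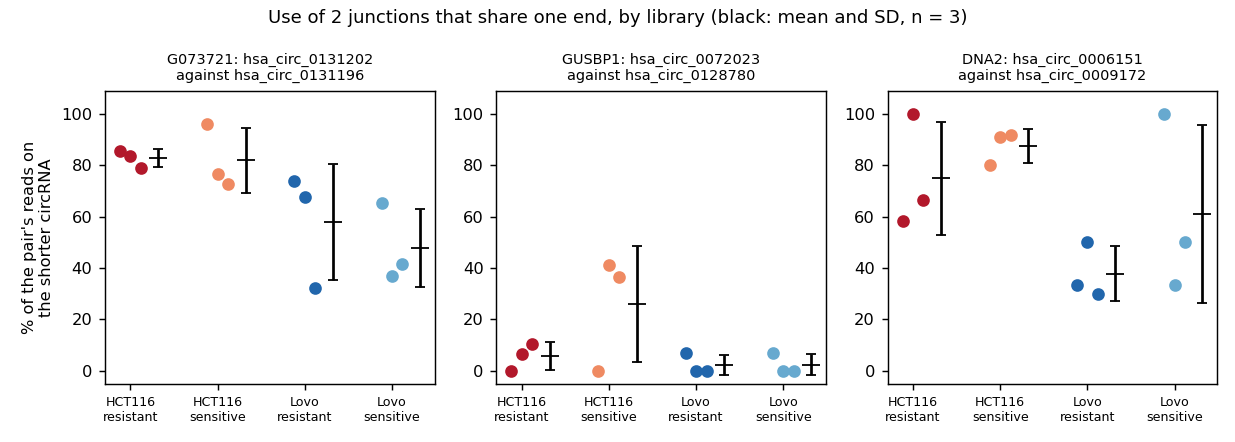
Points give, for each library, the percentage of a pair's reads that fell on the shorter of 2 circRNAs sharing one end, with group mean and SD in black. The shorter G073721 circRNA takes 72.7 to 96.2% in HCT116 and 32.1 to 74.1% in Lovo libraries.

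Some members had reads in 1 line alone without reaching the filter. Of the 37 members with 10 or more reads, 3 had none in Lovo and 0 had none in HCT116, beside 6.68% of 1766 circRNAs with none in one of the lines. Of 1571 other exonic circRNAs at that level, 56 had none in Lovo and 34 none in HCT116, whose libraries were deeper. Apart from FIRRE the members without Lovo reads were hsa_circ_0132345 of G071718 and hsa_circ_0107400 of DCAF7, a substrate receptor of a ubiquitin ligase. The first had 2, 1 and 0 reads in resistant and 5, 1 and 3 in sensitive HCT116 libraries. The second had 2, 0 and 4 in resistant and 0, 4 and 0 in sensitive HCT116 libraries. Another DCAF7 circRNA, outside the set, had reads in both lines, with 5 in resistant and 3 in sensitive HCT116 and 4 in resistant and 3 in sensitive Lovo cells. Summed over the members of a host, 5 of 44 hosts with 10 or more member reads lacked them in one line, beside 4.73% of 2073 host sums. The other two were seen in Lovo only: G028688, whose 4 circRNAs had 10 reads in resistant and 5 in sensitive libraries, and GK5, a glycerol kinase family member, whose 4 circRNAs had 3 in resistant and 8 in sensitive libraries.

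Among protein-coding hosts, 27 of 79 had 10 or more member reads. Besides DNA2, MAP3K4 and COA1 they included USP3, a deubiquitinase of histone H2A with 48 reads, ACSF3, a mitochondrial acyl-CoA synthetase with 35, AKR1E2, an aldo-keto reductase with 35, the receptor tyrosine kinase ERBB2 with 35 and UBAC2 with 30. The rest with 10 to 26 reads, besides those named elsewhere, were FAM185A, SPIDR, SLC38A9, NR1D2, PDK1, SSFA2, REXO4, BACH1, HECTD2 and LMF1. The main UBAC2 circRNA, hsa_circ_0030720, counted 4, 2 and 2 in resistant and 0, 7 and 3 in sensitive HCT116 libraries, and 0, 0 and 7 in resistant and 0, 1 and 2 in sensitive Lovo libraries, which overlapped. Of the 79, 50 also had circRNAs outside the set, and over all 79 hosts the members held 1004 reads and their other circRNAs 980. For USP3 the members were the minority, with 48 reads beside 154 on its other circRNAs, whereas all reads of COA1 and ACSF3 and those of ATAD2B (12 members, 25 reads) and SENP1 (7 members, 23 reads), a SUMO protease, fell on members. ERBB2 counted 2, 4 and 2 in resistant and 1, 4 and 2 in sensitive HCT116 libraries, and 4, 4 and 6 in resistant and 1, 2 and 3 in sensitive Lovo libraries. USP3 counted 2, 1 and 2 in resistant and 4, 3 and 3 in sensitive HCT116 libraries, and its log2 difference of -1.03 ± 1.03 was not called (SE, edgeR adjusted p = 0.910).

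MRPL30, a mitochondrial ribosome protein, and CCDC66, a protein of the primary cilium, were too low to test. MRPL30 members counted 2, 0 and 4 in resistant and 6, 11 and 2 in sensitive HCT116 libraries, and 1, 1 and 0 in resistant and 0, 0 and 1 in sensitive Lovo libraries. The circRNA hsa_circ_0001313 of CCDC66, chosen after its values were seen, had 7, 2 and 2 reads in resistant and 0, 0 and 0 in sensitive HCT116 libraries, and 0, 1 and 0 in resistant and 0, 3 and 0 in sensitive Lovo libraries. The difference in HCT116 rests on 11 reads. Summed over 3 members, CCDC66 counted 9, 2 and 2 in resistant and 0, 0 and 1 in sensitive HCT116 libraries. In Lovo the sum was 0, 1 and 0 in resistant and 2, 3 and 0 in sensitive libraries, which overlapped and went the other way.

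Among the pseudogene hosts, 5 of 39 had 10 or more member reads. GUSBP1 alone held 211 of the 398 reads of the class, and PLEKHM1P followed with 26, LOC146880 with 14, LOC440434 with 13 and RNF216P1 with 10. The members on these genes summed to 132 in resistant and 105 in sensitive HCT116 libraries, and 94 in resistant and 67 in sensitive Lovo libraries. Leaving GUSBP1 aside, no pseudogene host could be tested.

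Of 48 lncRNA genes known in cancer, 4 were hosts of members, with 9 circRNAs and 99 reads, of which FIRRE held 85. CDKN2B-AS1, an antisense RNA of the INK4 locus, had 4 circRNAs with 8 reads. PVT1, a neighbour of MYC, had 4 reads on members and 215 on circRNAs outside the set, so its main circRNA was not among them, and SNHG1 had 2. The 8 antisense hosts had 51 reads, of which 28 fell on TTN-AS1, the antisense RNA of titin: 6, 2 and 2 in resistant and 3, 1 and 3 in sensitive HCT116, and 2, 1 and 1 in resistant and 1, 6 and 0 in sensitive Lovo libraries. Hosts of small RNAs (4 genes, 8 reads) and LINC genes (3 genes, 9 reads) were close to the limit of detection at this depth. The readthrough SPECC1L-ADORA2A, typed as lncRNA, had 7 members and 15 reads.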

How the data were processed

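Back-splice junction reads of 12 libraries were analysed. The deposited values are unnormalized counts of each circRNA's junction reads in every library, per the file headers. With no role given, edgeR 3.16.5, STAR 2.5.1b, cutadapt 1.9.3 and build hg19 are named in the submitters' processing notes. The circRNA caller is not given in the sources used here. One line of the table was empty. No library columns were identical.

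Members and gene lists were chosen with earlier results of these data known. Host types came from RefSeq (GRCh38.p14): 262 members matched by accession, 8 by symbol or synonym and 99 did not.

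Counts were fitted with edgeR 4.0.16 (R 4.3.3): 4 group means, 8 residual degrees of freedom, trimmed-mean scaling, library sizes from the full table, a minimum count of 5 and total of 15, Benjamini-Hochberg adjustment over 300 circRNAs or 579 host sums. The fit was tested on simulated data. DESeq2 1.42.0, limma-voom (limma 3.58.1), other scalings and filters, 2 groups alone, a replicate block and leaving out each library were the alternatives. Shares of junction pairs were tested by exact permutation with Python 3.11.15. Bounds cover counting error only.

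Named were every member called, the 15 with most reads (some by their host alone), the 5 members and 5 host sums with the smallest p per comparison, the 6 hosts with most members (those tied at 4 were not all named) and listed hosts with 10 or more reads. Others are said to be chosen after their values were seen or appear in counts. One table was used for all comparisons, and no sequence of a circRNA was read, since no hg19 genome was used here.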

Additional observations from a re-analysis of the deposited data

How the results depend on the processing

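Under 14 alternatives the number of members called between resistant and sensitive HCT116 stayed at 0 except for 1 with limma-voom and 0 to 1 when a library was left out (MAP3K4). In Lovo it was 0 throughout. Between sensitive lines it was 1 of 3 with no filter on low counts and 1 with the 2 groups alone, where FIRRE was not tested. It was 2 with DESeq2, limma-voom, DESeq2 size factors, no trimmed-mean scaling or a minimum count of 10, and 2 to 3 with a library left out. Between resistant lines it was 1 with no filter and 1 to 3 with a library left out, the lowest without Lovo resistant replicate 3. It was 2 with DESeq2, DESeq2 size factors, a minimum count of 10 or the 2 groups alone, and 3 with limma-voom or no trimmed-mean scaling. Host sums called between sensitive lines were 1 with no filter, 2 with DESeq2 or limma-voom and 1 to 3 with a library left out. Between resistant lines they were 1 to 2. The member share difference between sensitive lines was 0.507 percentage points with NR_ transcripts alone and 0.415 with T-numbered ones alone. These are the 2 parts that make up the difference, so they are no check of it. Between resistant lines the libraries overlapped for each part alone. The member share difference between resistant and sensitive HCT116 ran from -0.364 to 0.112 points over 11 alternatives, so its direction was not kept.

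Of 656 recomputed log2 differences, 610 kept direction and side of the threshold, 36 lost a call, 4 gained one and 6 changed direction, none of the 6 a called difference. With limma-voom hsa_circ_0078617 in Lovo was 0.064. With a library left out, hsa_circ_0078617 in Lovo ran from -0.60 to 0.91, hsa_circ_0006151 in HCT116 from -0.61 to 0.31, hsa_circ_0131202 in HCT116 from -0.44 to 0.25 and the G053490 sum in Lovo from -0.088 to 2.06. The cause was not tested. Same-numbered libraries deviated together by correlations of -0.0448 to 0.0625, so no pairing by number was seen. With few reads per circRNA, counting noise could hide a pairing, and the labels do not state one. Not every library correlated best with its own number. With a replicate block the members called were 0 in HCT116, 0 in Lovo, 2 between sensitive lines and 2 between resistant lines, and the host sums called were unchanged in number. Depth limits the rest: 9 of 369 members had enough reads for a test.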
